A study of Mus musculus with 4 samples.

Results

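The genes described here are cytochrome P450 genes measured in mouse liver, taken by name as those whose single symbol in the platform annotation starts with Cyp and a digit, with 11 symbols left out (Cyp2b9, Cyp2b10, Cyp2b13, Cyp4a10, Cyp4a14, Cyp7a1, Cyp7b1, Cyp8b1, Cyp26a1, Cyp27a1 and Cyp51). This gave 30 genes of the 8251 that the array names, each read on 1 probe set, the one with the highest mean signal. Messenger RNA of male C57BL/6 mouse liver was measured on 4 Affymetrix MG_U74Av2 arrays, 1 each for sham-operated mice at zeitgeber time (ZT, hours after lights on) 2 and 14 and for adrenalectomised mice (ADX) at the same times. ADX mice had both adrenal glands removed under ketamine and xylazine by a dorsal approach and had 0.9% NaCl in their drinking water, where the labels give water for sham mice. Drinking salt thus differs with the operation, and the effects of both cannot be told apart. Both kinds of mice ate standard chow freely, and adrenalectomy also removes other adrenal hormones besides glucocorticoids. The sources used here give neither the age of the mice nor whether an array holds 1 animal or a pool.

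Cytochrome P450 enzymes are haem proteins that insert an oxygen atom into drugs, steroids, fatty acids and other lipids. Most of those in the liver sit in the endoplasmic reticulum of hepatocytes, take electrons from P450 reductase, and are grouped into numbered families and lettered subfamilies by sequence. Several are known to follow the clock, growth hormone, the sex of the animal, or ligand-activated receptors such as the Ah receptor, PXR and CAR, and glucocorticoids are known to raise some of them.

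In the text, signals are scaled array intensities, first those of sham mice at ZT2 and ZT14 and then those of ADX mice at ZT2 and ZT14, and a gene is Present where the array's detection call says so. A difference of 2-fold or more was called if the array with the higher signal had a Present call. With a single array for each group this rule looks at size alone, and no difference below has a replicate check. For scale, the log2 difference over all probe sets Present on both arrays had a robust SD of 0.35 between the times in sham, 0.33 in ADX, 0.25 between operations at ZT2 and 0.31 at ZT14. Signals of different genes come from different probes and were not set against each other. Of the 30 genes, 20 were Present on all 4 arrays, Cyp1a1 and Cyp17a1 on some, and 8 on none. Those 8 were Cyp1b1, Cyp2b19, Cyp2j6, Cyp2s1, Cyp3a16, Cyp11a1, Cyp24a1 and Cyp27b1, which are known mainly from other tissues or, for Cyp3a16, from young and female liver, and their signals lay between 0.463 and 15.5. The hepatocyte markers marked the tissue as liver, with 7 of 7 measured Present and a summed signal between 28751 and 29824 on the 4 arrays. Bulk liver cannot separate fewer cells of a type from less RNA per cell.

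The starts of a few genes named in the results are shown for reference, and no array result depends on their letters. Cyp1a1 was the only gene called, Cyp1a2 is its neighbour and close relative with little difference, Cyp2c39 had the widest span of the genes Present on all 4 arrays, and Cyp4v3 was lower on 1 array than on the others and carries an E-box, the site bound by clock activators. The log2 difference of Cyp4v3 between the times was 0.02 in sham and -0.44 in ADX, and a link to the E-box was not tested. Each run holds the 250 bases before the RefSeq gene start (GRCm38.p6), 5′ to 3′ along the gene, with motif matches in capitals.

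Cyp1a1 (chr9:57697363-57697612, plus strand): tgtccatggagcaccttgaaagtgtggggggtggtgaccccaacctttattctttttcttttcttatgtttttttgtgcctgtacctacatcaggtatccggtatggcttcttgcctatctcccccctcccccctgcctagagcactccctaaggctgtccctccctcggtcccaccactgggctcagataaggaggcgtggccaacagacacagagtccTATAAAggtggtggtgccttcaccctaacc

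Cyp1a2 (chr9:57683656-57683905, minus strand): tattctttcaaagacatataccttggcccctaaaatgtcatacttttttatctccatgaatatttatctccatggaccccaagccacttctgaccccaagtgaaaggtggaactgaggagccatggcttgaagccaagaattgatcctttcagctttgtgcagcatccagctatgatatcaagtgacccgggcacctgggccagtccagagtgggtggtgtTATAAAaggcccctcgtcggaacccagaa

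Cyp2c39 (chr19:39347096-39347345, plus strand): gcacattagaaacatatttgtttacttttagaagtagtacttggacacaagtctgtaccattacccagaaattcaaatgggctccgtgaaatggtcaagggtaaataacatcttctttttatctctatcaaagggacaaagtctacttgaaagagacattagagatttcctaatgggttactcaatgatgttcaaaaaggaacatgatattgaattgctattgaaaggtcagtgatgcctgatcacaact

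Cyp4v3 (chr8:45333164-45333413, minus strand): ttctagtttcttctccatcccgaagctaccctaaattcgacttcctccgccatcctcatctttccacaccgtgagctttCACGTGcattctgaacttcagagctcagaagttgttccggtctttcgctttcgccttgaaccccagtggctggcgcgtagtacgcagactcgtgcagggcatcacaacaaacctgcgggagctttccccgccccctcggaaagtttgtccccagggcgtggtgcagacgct

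The capitals mark TATAAA in Cyp1a1 and Cyp1a2, starting 30 and 29 bases before the gene start, and CACGTG, starting 171 bases before the start of Cyp4v3. The run of Cyp2c39 held none of the motifs searched. Of the 30 genes, 26 had such a window, and both strands were searched. TATAAA was found in 13 of 26 (50.0%), against 13.0% of all 27025 windows. AGAACA, the half-site of the glucocorticoid receptor, was found in 7 (26.9%), against 16.2% of all, namely in Cyp2b19, Cyp2c38, Cyp2d10, Cyp2d26, Cyp2j6, Cyp3a25 and Cyp4b1. CACGTG was found in 2 (7.69%, against 6.05%), Cyp2j6 and Cyp4v3. The D-box TTATGNAA, read by Dbp and its relatives, was found in 1 (3.85%, against 3.23%), Cyp2b19. The Ah receptor core TNGCGTG was found in 0 of 26, against 4.16%. The HNF4 core CAAAGTCCA was found in 3 (11.5%, against 0.381%), Cyp2c70, Cyp3a11 and Cyp3a16. The motifs were chosen with the array values known, and a match is a description of these letters.

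**Figure D1:**
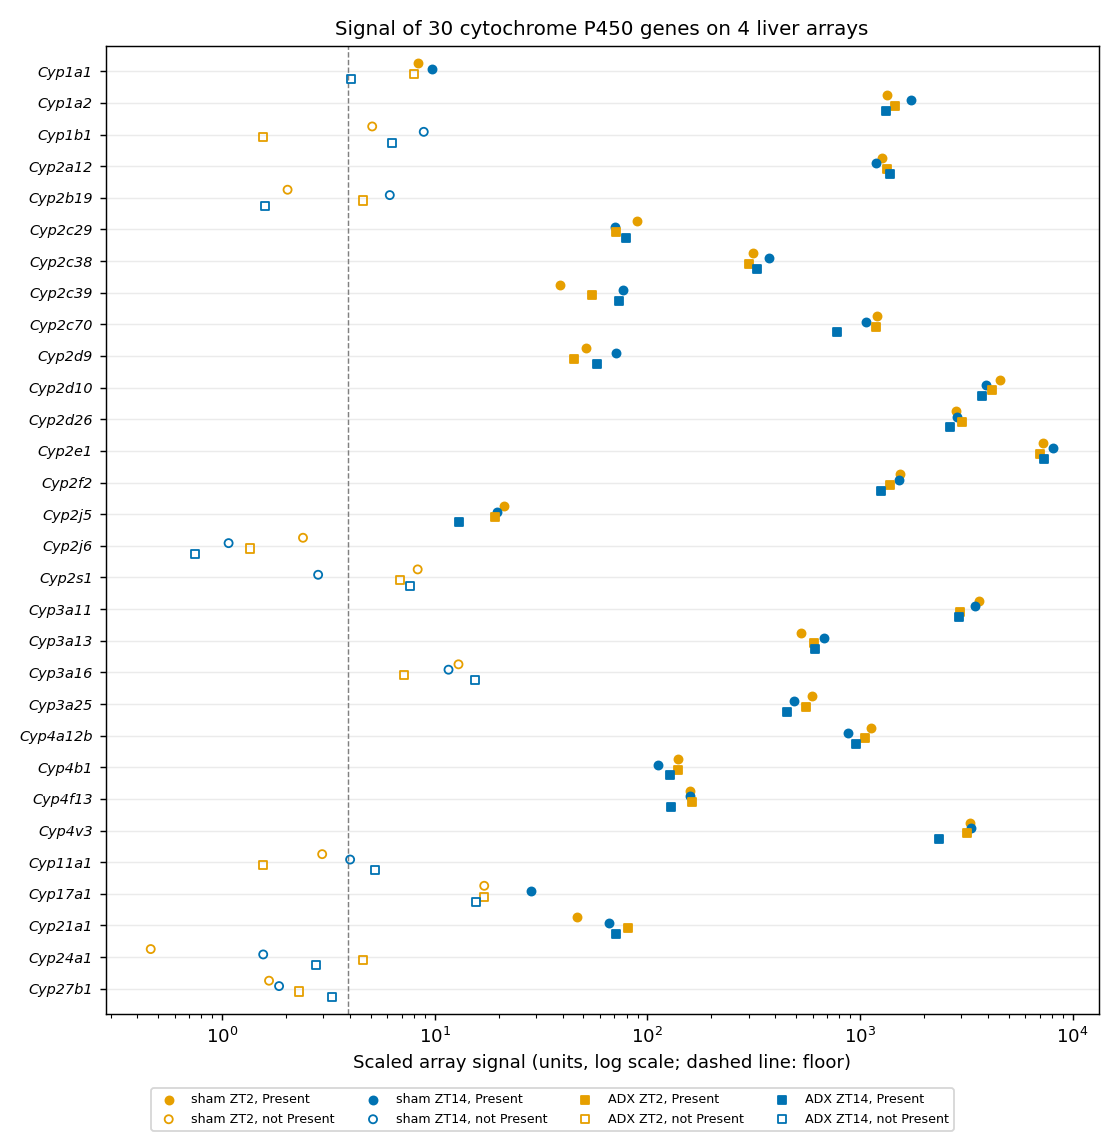
Scaled signal (x axis, log scale) of each of the 30 P450 genes (y axis) on the 4 arrays, filled where Present and open where not; circles are sham, squares ADX, orange ZT2 and blue ZT14. The 4 symbols of a gene lie close together for most genes, with 15 of the 20 genes Present on all arrays spanning less than 1.5-fold (75.0%, near the 68.5% of all 3889 such genes).

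Most of the P450 genes in this list kept a near-constant signal on all 4 arrays. The list leaves out 10 P450 genes of the array with their results known, and several of those passed 2-fold. The steadiness and the counts below therefore describe this list and not P450 genes as a whole. Over the 20 genes Present on all of them, the highest signal was 1.27-fold the lowest in the median, and 1.14-fold to 1.96-fold over the genes. The median was 1.36-fold over the 3889 genes of the array Present on all 4. Under 1.5-fold were 15 of the 20 (75.0%), against 68.5% of all genes, and at 2-fold or more were 0, against 6.71%. The first 2 of these measures lie near those of all genes, and 20 genes are too few to set 0 apart from 6.71%.

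The main drug-metabolising enzymes were among the steady ones. Cyp2e1, which oxidises ethanol and paracetamol around the central vein, had signals of 7265, 8123, 7049 and 7320.2, a span of 1.15-fold. Cyp3a11, the major mouse enzyme of the drug-oxidising CYP3A group and a target of PXR, had 3632, 3493, 2947 and 2923. Both ADX arrays were below both sham arrays for Cyp3a11, with log2 differences of -0.30 at ZT2 and -0.26 at ZT14, under 1.5-fold.

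Cyp1a2, which oxidises caffeine and aromatic amines, had 1343, 1743, 1463 and 1324. Its highest signal was on the sham ZT14 array, and its log2 difference between the times was 0.38 in sham and -0.14 in ADX. Cyp2f2, the naphthalene-oxidising enzyme of periportal hepatocytes, had 1549, 1529, 1384 and 1257, with both ADX arrays below both sham arrays. Cyp2a12, a steroid hydroxylase, had 1264, 1196, 1342 and 1381, a span of 1.15-fold. Its log2 difference between ADX and sham at ZT2 was 0.09 and turned to -0.09 with signals as deposited, so the order of its arrays depends on the scaling.

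Cyp2d10, Cyp2d26, Cyp3a13 and Cyp3a25 also spanned less than 1.5-fold. Cyp2d26 had 2831, 2873, 3012 and 2639.6, the smallest span of the 20 genes at 1.14-fold. Cyp2d10 had 4568, 3908, 4180.2 and 3744, and its other probe set 2452, 2214, 2205 and 1849.5, with log2 differences between -0.26 and -0.06 over both probe sets and the 4 comparisons. The probe set of Cyp2d10 used here carries the suffix of probes that several transcripts share. Cyp3a13 had 529.5, 678, 610.5 and 612.5, and Cyp3a25 had 596, 492, 560.3 and 456. Its ZT14 signals were below its ZT2 signals in both pairs, at log2 -0.28 and -0.30, under 1.5-fold. Cyp2c38, an arachidonic acid epoxygenase of the Cyp2c group, had 316, 373, 300.6 and 327.

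Cyp2d9, the testosterone hydroxylase of male liver, had 51.3, 71.0, 45.5 and 57.7, a span of 1.56-fold, with ZT14 above ZT2 in sham (log2 0.47) and in ADX (0.35). A probe set listed with both Cyp2d12 and Cyp2d9 did not show this rise. It had 3561, 3591, 3497 and 3047, with log2 differences between the times of 0.01 in sham and -0.20 in ADX. Cyp4a12b, an omega-hydroxylase of fatty acids, had 1129, 878, 1055 and 962. Cyp4b1 had 139.6, 113, 139.3 and 128, on a probe set whose suffix marks a shared family sequence. Cyp4f13, also a fatty acid hydroxylase, had 159, 159.5, 161.6 and 129. Its other probe set was Present on no array.

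Set against time of day in sham mice, 0 of the 22 genes Present on at least 1 array passed 2-fold, where 5.17% of all 5007 such genes on the array did. At 1.5-fold 2 passed, Cyp2c39 and Cyp17a1, where 15.8% of all genes did. Cyp2c39, known to break down retinoic acid, had 39.0, 76.6, 55.05 and 74.0. Both ZT14 arrays were above both ZT2 arrays, by 1.96-fold in sham and 1.34-fold in ADX. Cyp17a1, the steroid 17-hydroxylase of adrenal and gonad, was Present on the sham ZT14 array alone, with 17.1, 28.5, 17.0 and 15.7. In sham its ZT14 signal was at least 1.67-fold its ZT2 signal. The median log2 difference of the 22 genes was 0.01, against 0.00 for all genes, and the values went from -0.36 to 0.97.

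Without adrenal glands, 0 of 22 passed 2-fold between the times (4.63% of all genes) and 1 passed 1.5-fold (15.1% of all genes). This was Cyp2c70, the enzyme that makes muricholic acids from bile acids in mice, with 1197, 1064, 1195 and 782. Its ADX ZT14 array stood apart below the other arrays, with a ZT2 signal 1.53-fold the ZT14 signal in ADX and 1.13-fold in sham. The median log2 difference was -0.14, against a median of 0.01 for all genes. Below 0 were 15 of 22 genes (68.2%, against 48.8% of all genes), with 16 for signals as deposited and 14 after quantile normalization.

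**Figure D2:**
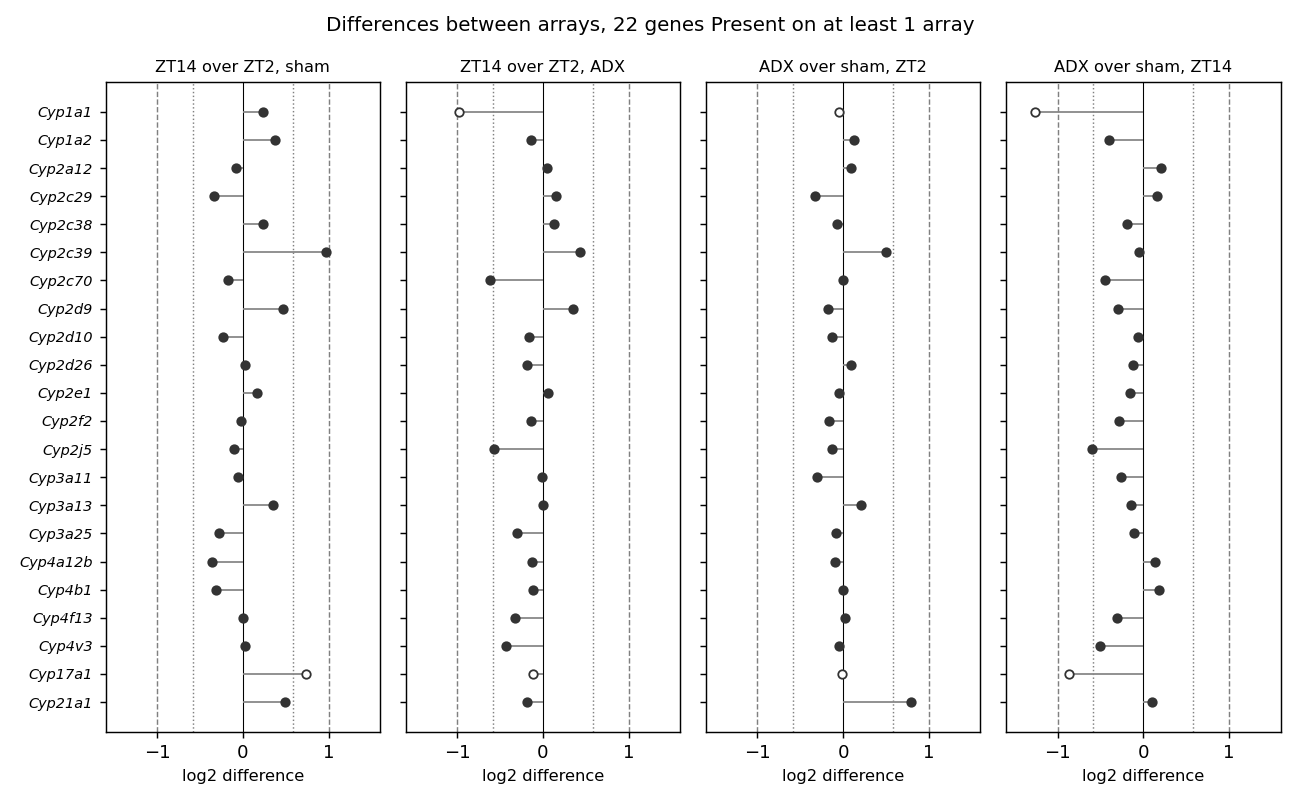
Log2 difference (x axis) of the 22 P450 genes Present on at least 1 array (y axis) in the 4 comparisons, 1 panel each; dotted lines mark 1.5-fold, dashed lines 2-fold, and open symbols a dimmer array without a Present call, where the value is a lower bound if the brighter array was Present. Only Cyp1a1 lies past 2-fold, in the ADX against sham panel at ZT14.

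No array belongs to both day-night pairs, so the signs of the differences can be set side by side. Of the 20 genes Present on all arrays, 5 were above 0 in both pairs, 8 below 0 in both and 7 of opposite sign. That is 65.0% of the same sign, against 63.1% of the 3889 genes. Among the 22 genes, the difference between the pairs, as log2 in ADX minus log2 in sham, was largest for Cyp1a1 (-1.22), Cyp17a1 (-0.85), Cyp21a1 (-0.68), Cyp2c39 (-0.55), Cyp1a2 (-0.52) and Cyp2c29 (0.49). Cyp2c29, an arachidonic acid epoxygenase, had 89.4, 70.8, 71.1 and 79.2. With 1 array a group these differences between pairs were not tested, and the first 2 rest on arrays without a Present call.

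At ZT2, 0 of 22 genes passed 2-fold between ADX and sham (2.14% of all genes) and 1 passed 1.5-fold (8.97% of all genes). This was Cyp21a1, the steroid 21-hydroxylase of the adrenal cortex, with 46.9, 66.2, 80.9 and 71.2, an ADX signal 1.72-fold that of sham at ZT2. Its difference at ZT14 was 1.08-fold. The gene was Present on all 4 arrays, those of mice without adrenal glands included. The other 4 adrenal cortex markers measured (Cyp11a1, Star, Hsd3b1 and Mc2r) were Present on no array, with signals of at most 20.4. The probe set carries the suffix of shared probes, so other transcripts may add to this signal. The median log2 difference of the 22 genes at ZT2 was -0.05, against 0.01 for all genes. Below 0 were 15 of 22 genes (68.2%, against 48.2% of all genes), a count that depended on the scaling, at 19 with signals as deposited and 11 after quantile normalization.

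At ZT14, 1 of 22 genes passed 2-fold between ADX and sham. This was Cyp1a1, and it was lower in ADX, where 1.28% of all genes were lower and 3.14% passed either way. Cyp1a1 oxidises polycyclic aromatic hydrocarbons and is the classic target of the Ah receptor. It had 8.3, 9.8, 8.0 and 4.1 and was Present on the sham arrays alone. The difference at ZT14 was at least 2.41-fold, against a dim signal of 4.1, just above the floor of 3.91 units. These signals lie near background: with the floor at 7.82 units the log2 difference went from -1.27 to -0.32, and with it at 15.5 to 0.00. Its other probe set was Present on no array. At 1.5-fold 3 genes passed, each with the lower signal in ADX (Cyp1a1, Cyp2j5 and Cyp17a1), where 5.19% of all genes were lower and 11.9% passed either way.

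Cyp2j5, an arachidonic acid epoxygenase of kidney and liver, had 21.1, 19.6, 19.3 and 13.0. The first 3 arrays lay together, and at ZT14 the sham signal was 1.51-fold that of ADX. The sham ZT14 signal of Cyp17a1, its single Present one, was at least 1.82-fold that of ADX. Its other probe set was Present on no array. Cyp4v3, a fatty acid omega-hydroxylase, had 3282, 3334, 3172 and 2345, and at ZT14 the sham signal was 1.42-fold that of ADX.

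The ADX ZT14 array held the lowest signal of many P450 genes. Among the 20 genes Present on all arrays it was the lowest for 10 (50.0%), against 25.3% of all 3889 genes. These counts were made after the values had been seen and depend on scaling, with 10 of 20 against 38.4% for signals as deposited and 6 of 20 against 26.6% after quantile normalization. The median log2 difference between ADX and sham at ZT14 was -0.17 over the 22 genes, with 17 below 0 (77.3%), against a median of 0.03 and 46.4% of all genes. The sums of the red cell, kidney, stellate, leukocyte, endothelial and adrenal cortex marker lists were also highest on this array. Those of bile duct and of lung and olfactory cells were not. The adrenal cortex sum was 107 on ADX ZT14 and 95.6 on sham ZT14, and Cyp21a1 was its only Present marker. For the 2 red cell markers measured the sum was 1960 against 1052 on sham ZT14, from Hba-a1 (1789 against 874), while Alas2 was at 171 against 178. For the 6 kidney markers it was 67.2 against 29.2, from Kap, at 39.8 and Present on that array only. Of the other kidney markers Slc34a1 had 3.7 on ADX ZT14 and 8.6 on sham ZT14, and Umod and Aqp2 were Present on no array. The stellate sum was 101 against 63.2, with Des, Absent on all arrays, at 17.7 against 2.6 and Col3a1 at 42.1 against 29.5. The leukocyte sum was 489 against 378, with Cd74 at 235 against 157 but Cd14 at 17.4 against 28.0. The endothelial sum was 133 against 127, with Cdh5 at 68.2 against 42.5 but Kdr at 22.6 against 34.2. The part of these cell types in the lower P450 signals was not tested. Hepatocyte markers summed to 28972 on ADX ZT14 and 29824 on sham ZT14.

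**Figure D3:**
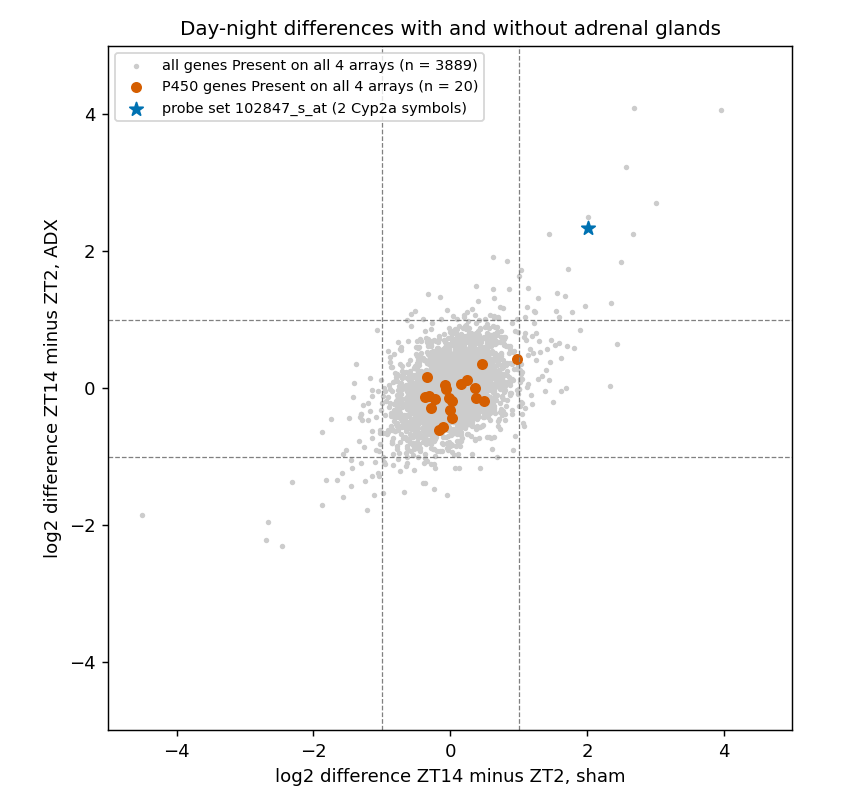
Log2 difference between ZT14 and ZT2 in sham (x axis) and ADX (y axis) for the 20 P450 genes Present on all arrays (orange), all 3889 such genes (grey) and the probe set whose annotation lists 2 Cyp2a genes (blue star); dashed lines mark 2-fold. The 20 genes lie inside the 2-fold lines, and the star lies at 2.01 and 2.34.

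An additive limma fit over 5872 probe sets Present on at least 2 arrays took both operations as samples of a time and both times as samples of an operation, with 1 residual degree of freedom. With Benjamini-Hochberg adjustment it called 2 probe sets for time (0.0341%) and 0 for operation (0%, with 329 at an unadjusted p under 0.05). None of the 21 P450 genes tested was called. Alas1, a haem synthesis enzyme with a log2 difference of 1.73 for time, was not called either. The absence of calls thus says little about the smaller differences of these genes. The error of the fit grows with the gap between the day-night pairs, so its top genes for time tend to share a sign in both. For time 1 of the 21 had an unadjusted p under 0.05, where 773 probe sets (13.2%) did, and for operation 0, against 5.6% of probe sets. That gene was Cyp2c39, with a log2 difference of 0.70 (SE 0.21, limma adjusted p = 0.333), above 0 in both pairs. Cyp2d9 followed at 0.41 (SE 0.16, limma adjusted p = 0.401), also above 0 in both pairs.

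Genes that serve the P450 enzymes were read from lists, whose counts stand beside the 2.14% to 5.17% of all genes that passed 2-fold in a comparison. These shares are for single comparisons, and the share of all genes that passed in any of them was not counted. The list of electron donors, which also held Pgrmc1 and Pgrmc2, gave 0 of 6 measured genes past 2-fold in any comparison. Cyb5a, the cytochrome b5 that feeds electrons to P450 enzymes, had 1854, 1922, 1973 and 1991. Fdx1, the ferredoxin of the mitochondrial P450 enzymes, had 825, 1123, 766.5 and 1121, with ZT14 above ZT2 by log2 0.45 in sham and 0.55 in ADX. Por, the reductase, had no probe set of its own symbol and was not analysed here.

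Among the haem enzymes, Alas1 passed 2-fold between the times in both pairs. Alas1, the rate-limiting enzyme of haem synthesis, had 609, 1998, 555 and 1861, with both ZT14 arrays at least 3-fold above the ZT2 array of the same operation (3.28-fold and 3.35-fold). Of the 10 haem genes measured, 2 were higher at ZT14 in sham (Alas1 and Hmox1) and 1 in ADX (Alas1). Hmox1, which breaks haem down, was also higher in ADX at ZT2 (29.9, 91.6, 60.9 and 82.7), and Fech, which inserts the iron, was at least 2.1-fold lower in ADX at ZT14 on a signal of 8.2 in sham. The steps between, such as Alad (449, 453, 523 and 539) and Urod (167, 153, 163.6 and 155), passed 2-fold in no comparison.

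Among 21 measured regulators of P450 genes, 3 passed 2-fold in sham between the times (Dbp and Tef higher, Nfil3 lower) and 4 in ADX, the same 3 genes and Bcl6, lower at ZT14. Between operations 0 passed at either time. Dbp and Tef are clock-driven activators and Nfil3 a repressor of D-box genes, and Dbp had 1.2, 98.2, 0.8 and 116. Nr1i3, the receptor CAR, had 294, 463, 320.5 and 446, with ZT14 above ZT2 in both pairs under 2-fold. Nr1i2, the receptor PXR, had 68.4, 48.8, 67.5 and 87.0, and Ahr, the Ah receptor, 50.1, 50.2, 55.2 and 40.3. Nr3c1, the glucocorticoid receptor, had 17.4, 21.1, 15.5 and 14.2. These receptors passed 2-fold in no comparison.

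Of the 10 P450 genes on the array that the list of 30 leaves out, 6 passed 2-fold at least once. Between the times, 1 was higher and 2 lower in sham (5.17% of all genes passed), and 2 higher and 1 lower in ADX (4.63%). Between ADX and sham, 2 were higher and 1 lower at ZT2 (2.14%), and 3 higher and 0 lower at ZT14 (3.14%). The 10 genes were left out with their results known, so the contrast with the 30 is a description. Cyp2b9 had 9.0, 6.3, 29.8 and 238, and Cyp4a14, a fatty acid hydroxylase known as a target of PPARα, had 649, 310, 217 and 389. Of the 6 female-biased P450 genes measured, only Cyp2c39 and Cyp17a1 belong to the 30, and neither passed 2-fold in any comparison. Of 11 pericentral genes, 5 of them among the 30 (Cyp1a2, Cyp2c29, Cyp2c38, Cyp2e1 and Cyp3a11), 0 passed 2-fold in any comparison. Their ADX signal was below that of sham for 9 at ZT2 and 8 at ZT14 (81.8% and 72.7%, against 48.2% and 46.4% of all genes). These differences were small, with a median absolute log2 of 0.07 at ZT2 and 0.16 at ZT14. For all genes it was 0.19 and 0.23. The counts of these lists were not recomputed under other scalings. Of 7 periportal genes 5 were below 0 at each time (71.4%), and Pck1 and Ass1 were called, both higher at ZT14 in ADX, Pck1 lower in ADX at ZT2 and Ass1 higher in ADX at ZT14. Of 13 other phase I enzymes, such as flavin monooxygenases and carboxylesterases, 0 passed 2-fold.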

How the data were processed

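Total RNA of male C57BL/6 liver was measured on 4 MG_U74Av2 arrays, 1 per group, grouped by sample title. Per the file headers, the deposited values are Affymetrix signals, linear intensities with 1 value for each probe set. The deposited detection p-value was read only through its detection call. The sources used here give neither the software nor its scaling target. Arrays were multiplied to a common 2% trimmed mean, signals under a floor of 3.91 units (the median Absent signal) were raised to it, and log2 was taken; 66 control probe sets were left out. Present calls covered 44.4% to 47.0% of probe sets, and the number of arrays limits the precision. Each array is a group of its own, so batch and group cannot be told apart.

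Genes were named from the platform annotation, with no gene named from a probe set of several symbols. The 30 identifiers were found in the RefSeq table of GRCm38.p6 with 0 symbols changed. Folds with a dimmer array that was not Present are lower bounds. The fit used limma 3.58.1 (R 4.3.3); other steps used Python 3.11.15 with pandas 2.3.3. The p-values of the fit rest on the spread among these 4 arrays, which may be technical. A difference between the day-night pairs also enters that spread. A gene whose day-night difference changed with the operation is therefore harder to call. The scaling, the calls and the fit were tested on simulated data with planted differences larger than any measured for the 30 genes. That test does not show how well differences of their size are detected. Members, lists and motifs were chosen with earlier results of these data known. The genes named are those called, the 12 of highest mean signal, the 6 with the largest difference between pairs, genes whose probe sets disagree, and called or preset partners; the others were added to account for every member Present on all arrays or to complete a list.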

Additional observations from a re-analysis of the deposited data

Results flagged for a closer look

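Of the 7 P450 probe sets that the annotation gives to several genes, and which therefore stand for none of the 30, 1 passed 2-fold. The probe set listed with both Cyp2a5 and Cyp2a4 had signals of 645 and 2597 in sham at ZT2 and ZT14, and of 623 and 3158 in ADX at the same times. It was Present on all 4 arrays, and both ZT14 arrays were above both ZT2 arrays. The log2 difference between ZT14 and ZT2 was 2.01 in sham and 2.34 in ADX, a signal outside the genes compared, and between ADX and sham it was -0.05 at ZT2 and 0.28 at ZT14. The day-night difference passed 2-fold under both other scalings, at 1.93 and 2.31 for signals as deposited and 2.07 and 2.39 after quantile normalization. Which of the listed genes it comes from was not tested.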

How the results depend on the processing

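The counts of P450 genes past 2-fold, 0 in 3 comparisons and 1 between ADX and sham at ZT14, were recomputed under 8 alternatives. With 1.5-fold they were 2 and 1 for the sham and ADX day-night pairs and 1 and 3 for ADX against sham at ZT2 and ZT14. The ZT14 count was 0 with the floor at 7.82 or 15.5 units and 0 over genes Present on all 4 arrays, and was 1 with all probe sets of a gene averaged, but then by Cyp17a1 (log2 -1.05) and not Cyp1a1 (-0.63). The share of all genes past 2-fold fell with the 15.5 floor to 2.9%, 2.32%, 0.399% and 0.919% in the order sham pair, ADX pair, ZT2 and ZT14, and over genes Present on all arrays to 3.37%, 2.62%, 0.617% and 1.03%. The floor of 7.82 gave 1.12% and 1.8% at ZT2 and ZT14. With signals as deposited the medians of the 22 genes between ADX and sham were -0.22 at ZT2 and -0.30 at ZT14, while those of all genes were -0.16 and -0.10. In sham the day-night median was 0.01 and turned to -0.07 with signals as deposited and -0.01 over genes Present on all arrays. In ADX it went from -0.17 to -0.09 over the alternatives. In the limma fit 0 P450 genes were called under the 7 alternatives for each effect, with the smallest adjusted p between 0.163 and 0.421 for time and between 0.568 and 0.9998 for operation, although the calls over all probe sets went from 0 to 154 for time and from 0 to 1 for operation. With so few arrays, the absence of called P450 genes in the fit says little about differences of their size. No paired analysis was possible because the labels carry no replicate numbers and each group has 1 array. The differences of Cyp1a1, which lies near the floor, and of Cyp17a1 are at best bounds where the dimmer array was not Present.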

Other observations

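Of the other 6 probe sets with several P450 symbols, all had differences under 2-fold. The probe set listed with 4 Cyp2c genes had signals of 1961, 1852, 1480 and 1093, with both ADX arrays below both sham arrays and log2 differences of -0.41 at ZT2 and -0.76 at ZT14. The probe set listed with Cyp4a32 and Cyp4a31 had 83.5, 72.8, 84.6 and 121, and a log2 difference of 0.73 between ADX and sham at ZT14. The probe set listed with Cyp2c50 and Cyp2c37 had 2315, 2183, 2257 and 2057. The probe set listed with Cyp3a16 and Cyp3a11 had 5241, 4722, 4286 and 4429, with both ADX arrays below both sham arrays, as on the probe set of Cyp3a11.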
